A study of Homo sapiens with 14 samples.

Results

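The sgRNAs described here target *BAP1*, and there were 5 of them (BAP1-1 to BAP1-5) among the 9077 sgRNAs of the library that was used in both base editor screens. They were taken by name, as every sgRNA whose ID begins with BAP1. The gene itself was chosen on values of both screens, the abundance of its sgRNAs in A549 on days 10, 20 and 30 relative to day 0 and their ratio between the sorted populations in H1. The values of both are therefore given as a description. A model fitted over all sgRNAs gives the H1 values their error and the background of calls, and no test of *BAP1* that is independent of this choice was available.

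Both screens measured how often each sgRNA occurred in the genomic DNA of pooled cells. A549 cells, a lung carcinoma line, carried the cytosine base editor FNLS-BE3, introduced by lentivirus into a pool of cells under puromycin, and received the sgRNA library by lentivirus at a low multiplicity of infection, followed by blasticidin selection. They were sampled after selection (day 0, 1 library) and on days 10, 20 and 30 of further culture (2 libraries each). The H1 line of human embryonic stem cells was likewise a puromycin-selected pool, with FNLS-ABE7.10(AW), an editor of adenine. It received the same library and was differentiated toward definitive endoderm with Activin A and CHIR99021. After 3 days the cells that stained least (CXCR4-) or most (CXCR4+) for the endoderm surface receptor CXCR4 were sorted and sequenced in 3 independent screens. The libraries hold sgRNA counts only, so neither the identity of the cells nor the editing at *BAP1* can be read from them. Depth was 14925937 to 16457222 reads in the A549 libraries and 8076271 to 11341078 in the H1 libraries, and 1000 non-targeting sgRNAs, which serve as negative controls, give the background.

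*BAP1* encodes a nuclear deubiquitinase that, together with ASXL proteins, removes the ubiquitin which Polycomb complexes place on histone H2A, and so helps to keep genes active. It was first found as a protein that binds BRCA1. It is a tumor suppressor that is lost in mesothelioma, uveal melanoma and clear cell kidney cancer. An sgRNA whose edit slows growth becomes rarer in a culture over time, and the size of the loss depends on the edit being made and on how long the remaining protein lasts.

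The sgRNAs named after genes were designed so that FNLS-BE3, which changes C to T, turns a codon into a premature stop codon. On GRCh37, the build on which the library was designed, *BAP1* lies on chromosome 3 from 52435024 to 52444024 on the minus strand, and its main transcript has 17 exons and 729 codons. The sequences of the 5 sgRNAs were not among the data used here. To show what a stop sgRNA of *BAP1* can look like, the gene was searched for every protospacer of 20 bases with an NGG PAM in which C to T changes at positions 4 to 8, counted from the PAM-distal end, create a stop codon. There were 10 such sites at 8 codons in 5 exons, all on the minus strand, which is the coding strand. Of these, 8 sites start from CAG, 1 from CAA and 1 from CGA. One site for each codon follows, with the bases that FNLS-BE3 could change in capitals. Which of them, if any, corresponds to which numbered sgRNA is not known here.
codon 36, exon 3, chr3:52443572-52443591: accttCagagcaaatgtcag
codon 60, exon 4, chr3:52442552-52442571: ccggCgaaaggtctctacct
codon 253, exon 9, chr3:52440283-52440302: gaaCCgtCagacagtactag
codon 393, exon 12, chr3:52438527-52438546: ccagCagtactcagatgatg
codon 694, exon 17, chr3:52436400-52436419: tggagCagaacatctccgtg
codon 702, exon 17, chr3:52436377-52436396: cggCgCCaaggggtcagcat
codon 712, exon 17, chr3:52436346-52436365: acaagCagcggaagcctgac
codon 729, exon 17, chr3:52436297-52436316: caagCgCCagtgaggactgc

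Codon 36 had 3 overlapping sites, of which the first is shown, and the last site changes the final codon of the protein. Stops at codons 36 and 60 fall within the catalytic domain, and stops in exon 17 leave most of the protein. The 5 sgRNAs share a target gene and are not replicates of a condition. The adenine base editor used in H1 changes A to G and cannot turn these codons into stop codons.

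On day 0 of the A549 screen the 5 *BAP1* sgRNAs were neither rare nor abundant. Their normalized counts, which are read counts scaled by 1 factor per library, were 1614 for BAP1-1, 1985 for BAP1-2, 1184 for BAP1-3, 1381 for BAP1-4 and 1328 for BAP1-5. BAP1-3, the least frequent, was above 21.2% of all sgRNAs in the library, and BAP1-2, the most frequent, was above 70.9%. Over all A549 libraries each *BAP1* sgRNA had between 443 and 2032 reads, which gives a log2-fold change (LFC) over day 0 a counting SD of 0.046 to 0.080. This SD covers counting error only, because reads amplified by PCR are not separate molecules unless identifiers mark them.

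By day 30 the *BAP1* sgRNAs had spread from near the starting level to 40.2% of it. BAP1-3 and BAP1-5 were the rarest relative to day 0, BAP1-4 and BAP1-1 lay between, and BAP1-2 was close to its starting level. All 5 stayed below day 0 in every one of the 6 later libraries, so that 30 of 30 values over day 0 were negative. All sgRNAs of the library were below day 0 in each of these 6 libraries in 17.1% of cases, and non-targeting sgRNAs in 15.1% (151 of 1000). Of the 3 sgRNAs of the safe-harbor locus AAVS1, 2 were. Among 15 other targets with named sgRNAs, only *TGFB1* and the puromycin resistance gene had a median LFC above 0 on day 10. A median below day 0 on day 10 was thus not particular to *BAP1*. The 6 values of an sgRNA share the single day 0 library as their base, so they are not 6 independent comparisons.

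BAP1-3 had normalized counts of 1144 and 943 on day 10, 1055 and 698 on day 20, and 507 and 446 on day 30, in replicates 1 and 2. Relative to day 0 this was 96.6% and 79.7%, then 89.1% and 59.0%, then 42.9% and 37.7%. The libraries of the same day stood apart on days 10 and 20, with replicate 2 the lower, and came together on day 30. The mean LFC, computed after a pseudocount of 1, was −0.19 ± 0.20 (SD, n = 2 libraries) on day 10, −0.46 ± 0.42 (SD, n = 2) on day 20 and −1.31 ± 0.13 (SD, n = 2) on day 30. Of the 1000 non-targeting sgRNAs, 158 had a lower mean LFC on day 10, 34 on day 20 and 5 on day 30.

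BAP1-5 had normalized counts of 1176 and 1232 on day 10, 1148 and 1075 on day 20, and 640 and 659 on day 30. It kept 88.6% and 92.8% of its day 0 abundance on day 10, 86.4% and 81.0% on day 20, and 48.2% and 49.6% on day 30. The libraries of a day were close to each other throughout, and the level of both day 30 libraries was far below that of both day 20 libraries. The mean LFC was −0.14 ± 0.05 (SD, n = 2 libraries) on day 10, −0.26 ± 0.07 (SD, n = 2) on day 20 and −1.03 ± 0.03 (SD, n = 2) on day 30. The number of non-targeting sgRNAs with a lower mean LFC was 213, 136 and 8 in the same order.

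BAP1-4 took the same shape at a smaller size. Its normalized counts were 1160 and 1248 on day 10, 1238 and 1269 on day 20, and 888 and 937 on day 30, and the last of these are 64.4% and 67.8% of day 0. There was no further loss between days 10 and 20, and both day 30 libraries were lower than all 4 earlier ones. The mean LFC was −0.20 ± 0.07 (SD, n = 2 libraries) on day 10, −0.14 ± 0.02 (SD, n = 2) on day 20 and −0.60 ± 0.05 (SD, n = 2) on day 30. On day 30, 72 of the 1000 non-targeting sgRNAs were lower.

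BAP1-1 and BAP1-2 did not take that course. The normalized counts of BAP1-1 were 1493 and 1114 on day 10, 1055 and 1214 on day 20, and 1114 and 1391 on day 30. BAP1-1 was lowest on day 20, with a mean LFC of −0.51 ± 0.14 (SD, n = 2 libraries), and stood at −0.38 ± 0.23 (SD, n = 2) on day 30, and its values at the 3 days overlapped. The normalized counts of BAP1-2 were 1768 and 1717 on day 10, 1881 and 1555 on day 20, and 1977 and 1881 on day 30. Its mean LFC was −0.19 ± 0.03 (SD, n = 2) on day 10 and −0.04 ± 0.05 (SD, n = 2) on day 30, where 432 of the 1000 non-targeting sgRNAs were lower. BAP1-2 thus ended in the middle of the non-targeting range, and BAP1-1, with 164 of 1000 below it, on its lower side.

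The study counts an sgRNA as changed in A549 when its LFC on day 30 is beyond 1 in size. By the mean of both day 30 libraries, BAP1-3 and BAP1-5 were below −1, which is 2 of 5, beside 1.52% of all sgRNAs (138 of 9077) and 10 of the 1000 non-targeting sgRNAs. Both were also below −1 in each day 30 library, where 0.606% of all sgRNAs and 4 of the 1000 non-targeting sgRNAs were. The median LFC over the 5 sgRNAs was −0.60 on day 30, against 0.00 over all sgRNAs and 0.02 over the non-targeting sgRNAs. Since this contrast was used to choose *BAP1*, nothing is read from these shares. BAP1-5 lay close to the threshold, and its LFC was −0.98 with a pseudocount of 50 and −0.89 when the mean of both day 10 libraries replaced day 0 as the base. BAP1-3 stayed beyond −1 with either, at −1.13 over day 10.

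No *BAP1* sgRNA was below −1 before day 30. Such losses were rare in the whole library at that stage, with 0.0661% of sgRNAs below −1 on day 10 (6 of 9077) and 0.165% on day 20 (15 of 9077). On day 10 the 5 *BAP1* sgRNAs lay within a narrow band, from −0.32 to −0.14, with an SD between sgRNAs of 0.07 against 0.23 among the non-targeting sgRNAs. The SD between *BAP1* sgRNAs was 0.16 on day 20 and 0.51 on day 30, against 0.26 and 0.41 among the non-targeting sgRNAs. The mean LFCs of these sgRNAs were therefore close on day 10 and further apart on day 30, when the non-targeting sgRNAs also spread more. In single libraries of day 10 the *BAP1* values ran from −0.53 to −0.05. The day 10 SD of the other targets compared ran from 0.04 (puromycin resistance gene) to 0.87 (*MYC*). A mean LFC below −1 on day 30 together with one above −0.5 on day 10, a limit set after the values were seen, was reached by BAP1-3 and BAP1-5, by 1.01% of all sgRNAs (92 of 9077) and by 4 of the 1000 non-targeting sgRNAs.

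The loss of BAP1-3, BAP1-4 and BAP1-5 lay mostly in the last interval. Within a replicate number, the log2 ratio of day 30 over day 20 was −1.06 and −0.64 for BAP1-3, −0.84 and −0.71 for BAP1-5 and −0.48 and −0.44 for BAP1-4. These sgRNAs were grouped for their late fall, so the negative sign of each ratio follows from that choice. BAP1-1 and BAP1-2 rose in both replicates over this interval. The ratios of BAP1-3, BAP1-5 and BAP1-4 averaged −0.85 ± 0.29 (SD, n = 2), −0.77 ± 0.10 (SD, n = 2) and −0.46 ± 0.03 (SD, n = 2). This is 64.7%, 75.1% and 76.6% of the LFC over the whole 30 days. Over the same interval the mean ratio of 1 non-targeting sgRNA was below that of BAP1-3, that of 3 below BAP1-5 and that of 51 below BAP1-4. These ranks rest on the same choice, so nothing is read from them.

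From day 10 to day 20 the ratios were −0.12 and −0.43 for BAP1-3, −0.03 and −0.20 for BAP1-5, and 0.09 and 0.02 for BAP1-4. The mean ratio of BAP1-3, −0.28 ± 0.22 (SD, n = 2), was already low in this interval, with 27 of the 1000 non-targeting sgRNAs below it, while 190 were below BAP1-5 and 658 below BAP1-4. BAP1-4 thus did not fall in that interval in either replicate. BAP1-1 and BAP1-2 were higher on day 30 than on day 20, by 0.08 and 0.20 for BAP1-1 and by 0.07 and 0.27 for BAP1-2. What links the libraries of 1 replicate number across the days is not stated, but they went together, with the difference between replicates 1 and 2 correlating over the 9077 sgRNAs at 0.570 between days 10 and 20 and 0.636 between days 20 and 30. The non-targeting sgRNAs also spread more in the last interval, with an SD of their mean ratio of 0.25 against 0.13 from day 10 to day 20.

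On day 30 the order from lowest to highest was BAP1-3, BAP1-5, BAP1-4, BAP1-1 and BAP1-2. Neighbours in this order did not overlap in their 2 library values, although BAP1-4 and BAP1-1 almost touched, at −0.56 and −0.54. The order was the same in both day 30 libraries. On day 10 it was different, with BAP1-1 the lowest at −0.32 ± 0.30 (SD, n = 2) and BAP1-5 the highest at −0.14 ± 0.05 (SD, n = 2), and there the values of the sgRNAs overlapped.

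The profile of the gene, taken as the median LFC of its sgRNAs in each of the 6 later libraries, was −0.17 and −0.21 on day 10, −0.17 and −0.35 on day 20, and −0.64 and −0.56 on day 30. Among 15 other targets with named sgRNAs, the nearest by Euclidean distance over these 6 libraries was AAVS1, a safe-harbor locus, at a distance of 0.23. *CDK9*, a kinase that lets RNA polymerase II leave its pause near the promoter, followed at 0.28, and *CDK2*, a kinase of the cell cycle, at 0.45. The median profile of the 3 AAVS1 sgRNAs was −0.10 and −0.25 on day 10, −0.25 and −0.40 on day 20, and −0.48 and −0.67 on day 30. The targeted tumor suppressor and the safe-harbor locus thus had similar medians on day 30, −0.60 for *BAP1* and −0.57 for AAVS1.

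The SD between the 3 AAVS1 sgRNAs was 0.44 on day 30, beside 0.51 between those of *BAP1*. AAVS1_3 had a mean LFC of −0.83 ± 0.31 (SD, n = 2 libraries) on day 30, AAVS1_1 one of −0.57 ± 0.14 (SD, n = 2) and AAVS1_2 one of 0.03 ± 0.21 (SD, n = 2). None of the 3 had a mean below −1, and AAVS1_3 reached −1.06 in replicate 2 and −0.61 in replicate 1. AAVS1_1 stood at −0.17 on day 10, −0.34 on day 20 and −0.57 on day 30. The median over all 7999 m6A-targeting sgRNAs was 0.00 on day 30. No difference between *BAP1* and AAVS1 was tested.

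The median LFC on day 30 was −0.46 for *CDK9* and −0.32 for *CDK2*, both closer to 0 than that of *BAP1*. Among all targets compared, *CDK6* and *MYC* had a lower median on day 30 than *BAP1*, at −0.92 and −3.70. CDK9-4 was already at −0.92 ± 0.12 (SD, n = 2) on day 10 and at −1.50 ± 0.21 (SD, n = 2) on day 30, while the other 3 sgRNAs of the gene lay between −0.55 and −0.36 on day 30. CDK2-3 stood at −0.49 ± 0.09 (SD, n = 2) on day 10, at −0.52 ± 0.12 (SD, n = 2) on day 20 and at −1.08 ± 0.15 (SD, n = 2) on day 30. CDK2-3 therefore shared with BAP1-3 and BAP1-5 a loss between days 20 and 30, from a lower level on day 10. *CDK9* and *CDK2* were named for their distance to *BAP1*, which is a description over 6 libraries that share 1 day 0 library.

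Of 17 genes listed as partners or opponents of the BAP1 protein, among them ASXL proteins, HCFC1, OGT, FOXK1 and the Polycomb subunits RNF2 and BMI1, only *BRCA1* had sgRNAs named after it in the library. *BRCA1* encodes a DNA repair protein. None of its 5 sgRNAs passed the threshold of 1 on day 30, where their mean LFCs ran from −0.22 to 0.44 with a median of −0.09. For *BRCA2*, which acts in the same repair pathway, the 5 sgRNAs ran from −0.52 to 0.26 with a median of −0.06. The range of *BAP1*, from −1.31 to −0.04, reached lower than either, while BAP1-1 and BAP1-2 lay within the range of *BRCA2*.

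In the H1 screen 0 of the 5 *BAP1* sgRNAs were enriched in the CXCR4- or the CXCR4+ population. Here the LFC compares the CXCR4+ with the CXCR4- library of a screen (log2, positive where CXCR4+ is higher), and enrichment asks for a median LFC over the 3 screens beyond 0.58 in size and a one-sided p under 0.05 from limma. Of all 9044 sgRNAs tested, 1.74% were enriched in the CXCR4- and 2.05% in the CXCR4+ population. By limma, 3.76% of the sgRNAs (340 of 9044) and 0 of the 5 *BAP1* sgRNAs had an unadjusted two-sided p under 0.05. After Benjamini-Hochberg adjustment over all sgRNAs 0% passed (0 of 9044). Since the ratio between the populations was among the values that *BAP1* was chosen on, nothing is read from these counts.

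BAP1-3 had normalized counts of 735, 656 and 697 in the CXCR4- libraries of screens 1, 2 and 3, and of 811, 771 and 867 in the CXCR4+ libraries. The LFCs of BAP1-3 were 0.14, 0.23 and 0.31 in screens 1, 2 and 3. The median LFC was 0.23 ± 0.09 (SD, n = 3 screens), and 77.8% of the 997 non-targeting sgRNAs tested were lower. By limma, which pools the variance of sgRNAs with similar counts, the mean LFC was 0.23 with a 95% interval of −0.38 to 0.84. BAP1-3, which had the largest loss of the 5 in A549, had a small spread in H1, with a lower SD over screens in only 3.31% of the non-targeting sgRNAs.

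BAP1-1 and BAP1-2 were lower in the CXCR4+ population in 2 of 3 screens each. BAP1-1 had counts of 1160, 1081 and 1448 in the CXCR4- libraries and of 854, 1142 and 913 in the CXCR4+ libraries, and its LFCs were −0.44, 0.08 and −0.66. BAP1-2 had counts of 826, 1018 and 945 in the CXCR4- libraries and of 586, 653 and 1052 in the CXCR4+ libraries, and its LFCs were −0.50, −0.64 and 0.15. In both sgRNAs the populations overlapped. Their median LFCs were −0.44 ± 0.38 (SD over n = 3 screens) and −0.50 ± 0.42 (SD, n = 3). The 95% intervals of the mean from limma, −0.87 to 0.18 and −0.94 to 0.28, included 0.

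BAP1-4 and BAP1-5 varied most between screens. BAP1-4 had counts of 744, 1437 and 938 in the CXCR4- libraries and of 1055, 851 and 775 in the CXCR4+ libraries, with LFCs of 0.50, −0.76 and −0.28. BAP1-5 had counts of 1254, 489 and 1127 in the CXCR4- libraries and of 990, 964 and 831 in the CXCR4+ libraries, with LFCs of −0.34, 0.98 and −0.44. The single CXCR4- value of screen 2 was the highest of 6 for BAP1-4 and the lowest of 6 for BAP1-5. The median LFC of BAP1-4 was −0.28 ± 0.64 (SD over n = 3 screens) and that of BAP1-5 −0.34 ± 0.79 (SD, n = 3). For BAP1-5 the mean LFC from limma was 0.07, opposite in sign to the median, with a 95% interval of −0.57 to 0.70, and for BAP1-4 it was −0.18 with an interval of −0.76 to 0.41. Without screen 2 the mean LFC was −0.39 for BAP1-5 and 0.11 for BAP1-4, so that 1 screen decided both signs.

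Across the 5 sgRNAs the median LFC in H1 ran from −0.50 to 0.23, within the middle 95% of the non-targeting sgRNAs tested, which was −0.65 to 0.58. The median of the 5 was −0.34, with −0.34 in screen 1, 0.08 in screen 2 and −0.28 in screen 3. The intervals from limma reached 0.84 on one side and −0.94 on the other, and each of them held 0 as well as a difference of 0.58 in at least 1 direction. From highest to lowest, the median LFC in H1 ran BAP1-3, BAP1-4, BAP1-5, BAP1-1 and BAP1-2. This was the A549 order on day 30 from lowest to highest, except that BAP1-4 and BAP1-5 changed places. No relation between these orders was tested. The editors, the cells and the contrasts differ between the screens, and the values are set side by side only.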

How the data were processed

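Each library was made by PCR of the sgRNAs in genomic DNA and sequenced on a HiSeq2000. According to the methods, the authors removed flanking bases with Cutadapt, obtained sgRNA counts from MAGeCK and divided them by each library's total. The deposited values, 1 table per screen, are treated as a normalized signal, not as raw counts. Their totals were not equal, at 15596331 on day 0 and 16120408 and 16154435 on day 30 in A549. With A549 rescaled to the same total, the median LFC over the 5 *BAP1* sgRNAs on day 30 was −0.65. CASAVA 1.4 stands in the submitters' processing notes. Every deposited value was a whole multiple, within 0.05 reads, of 1 step per library, and these steps gave the depth. The H1 library from before differentiation was not analysed here.

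Groups came from the sample labels. LFCs were computed after a pseudocount of 1 with Python 3.11.15, numpy 2.4.6 and pandas 2.3.3. H1 was fitted with limma 3.58.1 (lmFit, eBayes with a trend, R 4.3.3) over all sgRNAs with a mean of at least 200 in both populations, without a block. The fit was tried on simulated data beforehand. Those data had the same SD for all sgRNAs and no screen effect, and the differences put into them were larger than 0.58. How the fit does with smaller differences or unequal SDs was not tested. Alternatives were a block for the screen number, another pseudocount, base, filter or scaling, no trend, and each replicate left out. Libraries of a screen come from the same infection according to the methods, and their deviations from the population means correlated at 0.082, 0.065 and 0.287. Between screens 1 and 2 the mismatched libraries correlated at 0.108 and 0.084, while mismatched pairs with screen 3 correlated negatively. The values thus do not show the pairing for screens 1 and 2, although each LFC of a screen rests on it. The targets described were those nearest to *BAP1*, *BRCA1* and *BRCA2*, and 3 of the 17 genes with named sgRNAs were not compared. Other targets were named only where their values limit a comparison. The gene, its sgRNAs, the lists and the limits were chosen with earlier results of these data known. The study describes the 2 A549 libraries of a day as biologically independent samples. All of them are set against the lone day 0 library.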

Additional observations from a re-analysis of the deposited data

How the results depend on the processing

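The number of *BAP1* sgRNAs with an LFC below −1 on day 30 was 2 under 6 of 8 alternatives and 1 with a pseudocount of 50 or with the mean of both day 10 libraries as the base. With the day 10 base the median LFC over the 5 sgRNAs was −0.40, and 45 of all sgRNAs were below −1. Without replicate 1 or 2 of day 30 the number of *BAP1* sgRNAs below −1 was 2 each time, the median LFC was −0.56 to −0.64, and 265 to 277 of all sgRNAs were below −1, since 1 library has a wider spread than the mean of 2. Of the 40 values that the 5 sgRNAs took under these alternatives, 39 were negative, and the exception was BAP1-2 over day 10 at 0.15.

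In H1, 0 *BAP1* sgRNAs were enriched under each of the 9 alternatives. With the replicate block (the screen number) 0 of 5 were enriched, and no call of a *BAP1* sgRNA changed. Over all sgRNAs 373 were enriched with the block and 342 without it, and the number ran from 423 to 725 with 1 screen left out. With 1 screen left out the mean LFC ran from −0.52 (without replicate 1) to 0.11 (without replicate 2) for BAP1-4, and from −0.39 (without replicate 2) to 0.32 (without replicate 3) for BAP1-5. The planned count test on whole reads was not run. A549 was described by ratios within a replicate number and was not tested. The lone day 0 library limits every A549 value.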
